A study of Mus musculus with 3 samples.

Results

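The 8 genes described here, Pax3, Lbx1, Six4, Eya1, Myf5, Myod1, Msc and Sim2, encode transcription regulators of skeletal muscle precursors. They were taken as a named list, matched through the Ensembl gene identifiers of the files, out of 15122 genes in all, and each of the 8 had a row. They were measured in single cells of trypsin-dissociated forelimb buds from wild-type, untreated mouse embryos, with the droplet method of 10x Genomics (3′ end counting, version 2). There were 3 libraries, 1 for each group: B6_E10.5 (strain c57bl6.J, embryonic stage E10.5), 129_E9.5 (strain 129S6.sv, stage E9.5) and B6_E9.5 (strain c57bl6.J, stage E9.5). The number of embryos behind each library is not stated in the labels. With 1 library in each group, a difference between stages or strains had no replicate check and no test, and all intervals below are 95% intervals that cover counting error only.

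Limb muscle does not arise from limb mesenchyme. Its precursors leave the dermomyotome of the somites opposite the limb buds, migrate into the bud, and there enter the myogenic program. Pax3, a paired-box factor, is needed for this migratory population, and Lbx1, a homeobox factor, marks the cells that have left the somite and is needed for their migration. Six4 is a homeobox factor of the sine oculis family, and Eya1 is a coactivator and phosphatase that binds Six4 and its relatives; both act upstream of the myogenic determination genes. Myf5 and Myod1 encode the basic helix-loop-helix factors that commit cells to muscle, and Myog, a gene outside the list, encodes the related factor that drives their differentiation. Msc (musculin, also called MyoR) encodes a basic helix-loop-helix repressor best known from jaw muscle precursors, and Sim2 encodes a PAS-domain factor that represses Myod1 in embryonic limb muscle of chick and mouse.

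RefSeq promoter windows were matched by symbol for 2 of the 8 genes, Myf5 and Six4, and are shown with that of Myog, the gene on which the Myf5 and Myod1 results below turn. Each line gives the 200 bases from 250 to 51 bases before the annotated start, on the gene's strand, 5′ to 3′, in build GRCm38.p6. Capitals mark matches on either strand to an E-box (CANNTG, the core recognised by Myf5, Myod1 and Msc) or to a MEF3 site (TCAGGTT, the motif of Six4); these 2 matches do not overlap.
Myf5 (chr10:107486185-107486384, minus strand): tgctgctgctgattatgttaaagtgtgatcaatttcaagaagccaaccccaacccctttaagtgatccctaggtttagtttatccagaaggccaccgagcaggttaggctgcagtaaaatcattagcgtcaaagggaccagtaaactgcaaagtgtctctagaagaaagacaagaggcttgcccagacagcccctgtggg
Six4 (chr12:73113476-73113675, minus strand): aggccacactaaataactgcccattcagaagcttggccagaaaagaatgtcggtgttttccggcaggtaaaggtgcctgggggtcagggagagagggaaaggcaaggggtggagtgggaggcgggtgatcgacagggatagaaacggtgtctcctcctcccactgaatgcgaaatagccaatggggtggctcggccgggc
Myog (chr1:134289754-134289953, plus strand): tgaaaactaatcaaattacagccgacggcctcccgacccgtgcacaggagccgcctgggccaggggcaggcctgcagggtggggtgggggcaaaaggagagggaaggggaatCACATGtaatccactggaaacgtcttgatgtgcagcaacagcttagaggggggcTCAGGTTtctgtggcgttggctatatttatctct
Among 32514 distinct windows of the same length, 59.1% held an E-box and 2.85% held the MEF3 letters. The Myog window held 1 match to each motif (CACATG and TCAGGTT), and the Myf5 and Six4 windows held 0 of either. A match describes these letters and is not a measurement of binding.

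The authors sorted the 43950 cells into 5 numbered clusters, and cluster 2 was the muscle cluster. It held 1498 of 18957 cells in B6_E10.5 (7.90%, interval 7.52 to 8.30), 647 of 12220 in 129_E9.5 (5.29%, 4.90 to 5.71) and 285 of 12773 in B6_E9.5 (2.23%, 1.98 to 2.50). These were backed by 11961141, 5028077 and 3432736 unique molecular identifiers (UMIs, each 1 captured RNA molecule), with medians of 7695.5, 7550 and 10989 UMIs per cell in the same order. The 14 muscle progenitor markers summed to 1521, 1280 and 1296 CPM (UMIs of a gene per 1000000 UMIs of the same cells) in cluster 2. They summed to 92.9 CPM or less in any other cluster. All 8 genes described here are among these 14 markers, so the sums are not a separate check of the label. In the other clusters, markers of limb mesenchyme led cluster 0, of surface ectoderm cluster 1, of endothelium cluster 3 and of erythroid cells cluster 4. Cluster 2 was not pure: the 10 neuron markers summed to 56.5 CPM in B6_E10.5, 1465 CPM in 129_E9.5 and 121 CPM in B6_E9.5. In B6_E10.5 this was below the sums of cluster 1 (73.8 CPM) and cluster 3 (143 CPM), and in the E9.5 libraries it was the highest of any cluster. Cells with at least 2 UMIs of Tubb3, Elavl3, Elavl4, Stmn2 and Dcx together (called neuron-marked here) numbered 30 of 1498, 62 of 647 and 4 of 285. Of those markers 9, 10 and 6 were above 0, with Nhlh1 at 0 in B6_E10.5 and Stmn2, Isl1, Ina and Nhlh1 at 0 in B6_E9.5. The 6 erythroid markers, all above 0, summed to 272, 434 and 1071 CPM in the same order. That level was not particular to cluster 2, with 280, 424 and 1270 CPM in cluster 0 and 337, 477 and 1134 CPM in cluster 1. Of the 8 endothelial markers Kdr, a receptor, made up most in the E9.5 libraries, at 0.502, 74.2 and 159 CPM in the same order. In B6_E9.5 Kdr stood at 178 CPM in cells of cluster 2 with an Lbx1 UMI and at 22.1 CPM in those without. In 129_E9.5 it stood at 80.7 and 28.7 CPM. The strain ratios, pairs and Lbx1 values that lost their call or moved most without the neuron-marked cells are given both ways below.

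Pax3 and Lbx1, the factors of the migratory state, were the most widely detected of the 8 genes in cluster 2 of every library. Pax3 stood at 297 CPM in B6_E10.5 (287 to 307), 431 CPM in 129_E9.5 (413 to 449) and 439 CPM in B6_E9.5 (417 to 461). At least 1 Pax3 UMI was found in 81.6%, 86.1% and 86.7% of those cells in the same order. Lbx1 stood at 202 CPM in B6_E10.5 (194 to 211), 424 CPM in 129_E9.5 (406 to 442) and 498 CPM in B6_E9.5 (475 to 523), and was detected in 71.2%, 84.4% and 84.2% of cells. Both genes were thus lowest in the E10.5 library, and the intervals of that library lay outside those of both E9.5 libraries. Between the E9.5 libraries the Pax3 intervals overlapped, and the Lbx1 intervals did not.

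Six4 and Eya1, a homeobox factor and a coactivator of its family, differed from each other across the libraries. Eya1 stood at 179 CPM in B6_E10.5 (171 to 187), 93.5 CPM in 129_E9.5 (85.2 to 102) and 83.6 CPM in B6_E9.5 (74.2 to 93.9), and was detected in 69.6%, 47.4% and 48.1% of cells. Six4 stood at 51.9 CPM in B6_E10.5 (47.9 to 56.2), 31.8 CPM in 129_E9.5 (27.1 to 37.2) and 48.1 CPM in B6_E9.5 (41.0 to 56.0), and was detected in 33.0%, 21.0% and 38.6% of cells. Eya1 was therefore highest at E10.5, with overlapping intervals in the E9.5 libraries, while Six4 was lowest in 129_E9.5 and did not differ beyond counting error between the B6 libraries.

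The determination genes Myf5 and Myod1 had counts in 1 library only. In cluster 2 of B6_E10.5, Myf5 stood at 123 CPM (117 to 129) and was found in 718 of 1498 cells (47.9%, 45.4 to 50.5). Myod1 stood at 55.2 CPM (51.0 to 59.6) and was found in 282 cells (18.8%, 16.9 to 20.9). In both E9.5 libraries each of the 2 genes is listed at 0 in every cell of every cluster, as are Myog, Myf6, Vgll2 and Pitx3. A listed 0 is not a measured absence here. In the deposited matrix 0 genes were detected in only 1 or 2 cells of a library, although 690 to 718 genes per library were found in 10 to 18 cells, and 440 genes were at 0 in both E9.5 libraries and above 0 in B6_E10.5. A gene found in a few cells of a library may therefore be listed at 0, and Myf5 and Myod1 were given no fold and no limit at E9.5, and were left out of the stage and strain ratios.

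Msc and Sim2, the genes of 2 repressors of myogenesis, were the members that varied most between the E9.5 libraries. Msc stood at 72.2 CPM in B6_E10.5 (67.4 to 77.1), 14.5 CPM in 129_E9.5 (11.4 to 18.3) and 0.291 CPM in B6_E9.5, where it was a single UMI (0.00738 to 1.62). Sim2 stood at 67.9 CPM in B6_E10.5 (63.3 to 72.7), 58.9 CPM in 129_E9.5 (52.4 to 66.0) and 11.4 CPM in B6_E9.5 (8.08 to 15.5), and was detected in 34.7%, 31.5% and 9.47% of cells. Sim2 was thus at a like level in B6_E10.5 and 129_E9.5, with overlapping intervals, and lower in B6_E9.5. In 129_E9.5, 18 of the 62 neuron-marked cells held Msc (29.0%, 18.2 to 41.9), against 29 of the other 585 (4.96%, 3.34 to 7.04); for Pax3 it was 27.4% against 92.3%. Without the neuron-marked cells Msc was at 7.65 CPM in that library, under the minimum of 10 CPM used for ratios, and Sim2 was at 63.6 CPM.

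**Figure D1:**
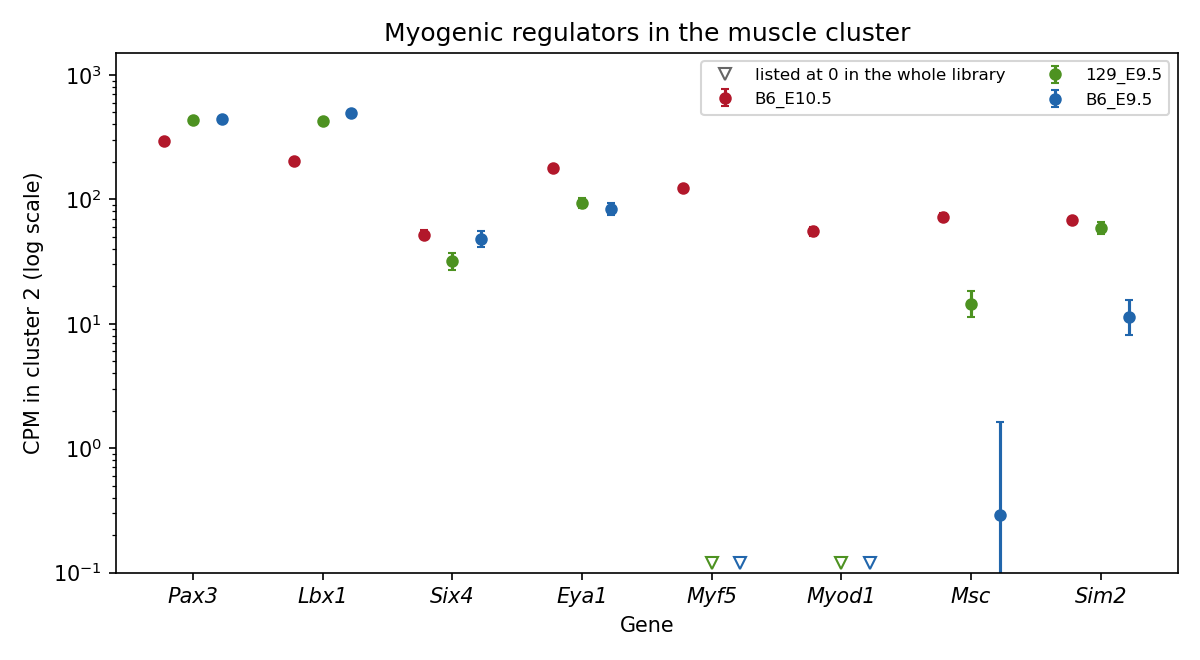
CPM of the 8 genes in cluster 2 (vertical axis, log scale) for B6_E10.5, 129_E9.5 and B6_E9.5; points are the sums of 1 library each and bars are exact Poisson 95% intervals, some smaller than the points. Pax3 and Lbx1 are lowest in B6_E10.5, and Eya1 and Msc are highest there. Sim2 is lowest in B6_E9.5, with overlapping intervals in B6_E10.5 and 129_E9.5. Open triangles at the bottom mark genes listed at 0 in a whole library and are not values.

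The stage comparison set B6_E10.5 against B6_E9.5 in cluster 2 by the ratio of CPM, counting a gene as called at a ratio of at least 2 or at most 0.5, and testing genes with at least 20 UMIs and 10 CPM in the higher library. A gene high in 1 library alone thus entered through that library. Of the 6 members tested, 3 were higher at E10.5 (Eya1, Msc and Sim2) and 1 was lower (Lbx1). Over all 8094 genes tested, 4.3% were called higher and 5.26% lower. The members' median log2 ratio was 0.60, against -0.06 over all genes tested. Eya1 was 2.14 times as high at E10.5 (1.89 to 2.43) and Sim2 5.98 times (4.33 to 8.47). The Msc ratio of 248 (44.3 to 9794) rests on the single UMI of B6_E9.5. Lbx1 was at 0.406 of its E9.5 level (0.382 to 0.432) and Pax3, short of the threshold, at 0.677 (0.637 to 0.719). Six4 had a ratio of 1.08 (0.908 to 1.29).

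The strain comparison set 129_E9.5 against B6_E9.5 by the same rule, and shares its B6_E9.5 library with the stage comparison. Of the 6 members tested, 2 were higher in 129_E9.5 (Sim2 and Msc) and 0 lower, where 4.43% of all 8006 genes tested were called higher and 6.32% lower. The members' median log2 ratio was 0.07, against -0.02 over all genes. Sim2 was 5.18 times as high in 129_E9.5 (3.70 to 7.43), and 5.94 times without neuron-marked cells. Msc was 49.8 times as high (8.67 to 1995), again against 1 UMI, and 25.7 times without neuron-marked cells, at which point it no longer met the minimum level. Pax3 (0.982, 0.919 to 1.05) and Eya1 (1.12, 0.963 to 1.30) had intervals that include 1. Lbx1 (0.850, 0.798 to 0.907) and Six4 (0.662, 0.529 to 0.828) were lower in 129_E9.5 without reaching the threshold. Strain, exact embryo age and reaction cannot be told apart in this pair.

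Other muscle genes of the same pathways varied alongside. In a list of 20 other myogenic transcription factors, 13 were tested for stage, and 3 were higher at E10.5 (Eya2 and Six2 among them) and 2 lower (Meox1 and Mef2c), with a median log2 ratio of 0.35. Eya2, the paralog of Eya1, stood at 46.5 CPM in B6_E10.5, 18.7 CPM in 129_E9.5 and 4.95 CPM in B6_E9.5. Of 22 genes of muscle structure and differentiation, 13 were tested for stage; 3 were higher at E10.5 (Cdh15, Tnnt1 and Tpm2) and 8 lower, with a median log2 ratio of -1.63. Those 8 were Actc1, Acta1, Des, Myl4, Tnnt2, Tnnc1, Tnni1 and Megf10; Tnnt2 and Myl4 are also genes of heart muscle. Of 12 genes of precursor migration, 10 were tested for stage; Cxcr4, Ackr3 and Itga4 were higher at E10.5, and Gab1, Cxcl12 and Itga6 lower. Met, the receptor that precursors need to leave the somite, had a stage ratio of 1.30 (1.13 to 1.50) and was not called. Of 14 Notch genes 7 were tested, and Notch3, Hes6 and Hey1 were higher at E10.5. The cell cycle inhibitor Cdkn1a was at 274 CPM in B6_E10.5 and 22.4 CPM in B6_E9.5, and Cdkn1c at 1080 and 196 CPM, while none of the 15 S phase and 15 G2 and M phase genes was called. In the strain comparison, Eya2, Dach2, Itga4 and Hes6 were among the genes of these lists that were higher in 129_E9.5, and all 9 neuron markers tested were higher too. Meox1, Mef2c, Efna5, Itga6 and Notch2 were lower. Of the genes of muscle structure and differentiation, 11 were tested for strain, with 0 higher and 7 lower in 129_E9.5 (Actc1, Acta1, Myl4, Mylpf, Tnnt2, Tnnc1 and Tnni1) and a median log2 ratio of -1.58. Actc1, Acta1, Myl4, Tnnt2, Tnnc1 and Tnni1 were thus called lower both in B6_E10.5 and in 129_E9.5 than in B6_E9.5, the library that the stage and strain comparisons share. In B6_E9.5, Actc1 stood at 0.992 CPM in the 240 cells with an Lbx1 UMI and at 128 CPM in the 45 without. Tnni1 stood at 4.30 and 118 CPM, Mylpf at 4.96 and 133 CPM and Des at 20.2 and 93.3 CPM in that order. Megf10 was at 12.2 and 2.46 CPM without neuron-marked cells, the lower value resting on 1 UMI. Most B6_E9.5 UMIs of Actc1, Tnni1 and Mylpf thus came from those 45 cells, and most of Des did not. Tcf15, a marker of epithelial somite, was at 168 CPM in B6_E10.5 and 580 CPM in B6_E9.5. The part that RNA of the somite, endothelial and erythroid markers of B6_E9.5 had in these ratios was not tested.

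The members differed in how far they reached outside cluster 2. For Pax3 and Lbx1, between 91.2% and 94.96% of all UMIs of each library fell in cluster 2, and for Myf5, Myod1 and Msc in B6_E10.5 between 89.8% and 91.9%. Sim2 had 72.9% of its UMIs there in B6_E10.5, 92.5% in 129_E9.5 and 84.8% in B6_E9.5. Msc had 84.9% in 129_E9.5 and 6.25% in B6_E9.5, where the whole library held 16 Msc UMIs. Six4 was widespread in every library, with 16.1% of its UMIs in cluster 2 of B6_E10.5, 10.3% in 129_E9.5 and 5.69% in B6_E9.5. In mesenchyme it stood at 33.0 CPM in B6_E10.5, 17.3 CPM in 129_E9.5 and 24.4 CPM in B6_E9.5, so that cluster 2 was 1.57, 1.84 and 1.97 times as high. Ectoderm carried Six4 at 32.4, 25.8 and 26.8 CPM, and endothelium at 6.01, 2.98 and 4.12 CPM. Eya1 lay between, with 79.7%, 62.6% and 29.0% of its UMIs in cluster 2 and with 15.4, 6.96 and 8.38 CPM in ectoderm. Its level in cluster 2 was 11.6, 13.4 and 9.98 times that of ectoderm, the next highest cluster. Shares of UMIs also depend on the size of cluster 2, which held 7.90%, 5.29% and 2.23% of cells in the same order. Sim2 was detected in 1.60% of mesenchymal cells of B6_E10.5 (1.41 to 1.81) and in 0.195% and 0.0620% of those of 129_E9.5 and B6_E9.5.

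Low shares outside cluster 2 have to be read against free RNA, which puts UMIs into cells that lack a transcript. In erythroid cells of B6_E10.5, which should lack these genes and had a median of 14608 UMIs per cell, Lbx1 was found in 5 of 401 cells (1.25%, 0.406 to 2.89), Pax3 in 1 (0.249%, 0.00631 to 1.38) and Six4 in 1.496%. Mesenchyme of that library had a median of 5422 UMIs, so levels are set beside the shares. Lbx1 was found in 0.666% of mesenchymal cells, at 1.28 CPM (1.06 to 1.53) against 1.18 CPM in erythroid cells (0.473 to 2.43), and was not told apart from background. Pax3 was found in 0.874% of mesenchymal cells (0.733 to 1.03), at 1.82 CPM (1.55 to 2.12) against 0.336 CPM in erythroid cells (0.0407 to 1.21). Its CPM intervals lay apart, but its share intervals overlapped, so Pax3 was not clearly told apart from background either. The Six4 share of mesenchyme was 17.1%. For Sim2 there were 0.229 UMIs per Pax3 UMI in cluster 2 of B6_E10.5, against 1.75 in the mesenchyme of the same library. Among 15325 mesenchymal cells of B6_E10.5, 57 (0.372%) held at least 2 of Pax3, Lbx1, Myf5 and Myod1, and in 129_E9.5 and B6_E9.5 it was 17 of 9233 and 6 of 9678. No doublet caller was run, and the part of doublets in these cells was not tested.

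**Figure D2:**
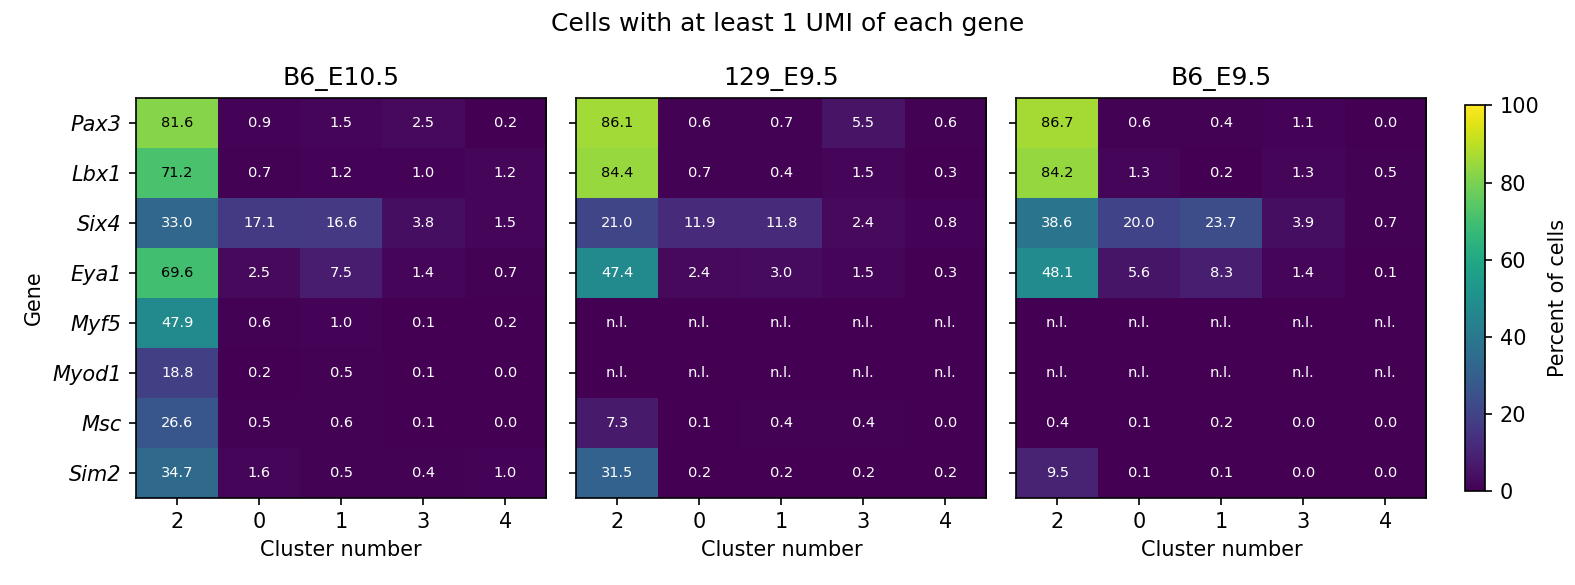
Percent of cells with at least 1 UMI of each gene (rows) in the authors' clusters (columns; 2 muscle, 0 mesenchyme, 1 ectoderm, 3 endothelium, 4 erythroid) for each library; n.l. marks genes listed at 0 in the whole library. Six4 is the only row with shares above 10% outside cluster 2, from 11.8% to 23.7% in mesenchyme and ectoderm; Eya1 reaches 8.33% in ectoderm of B6_E9.5, and Msc is at 0.351% in cluster 2 of that library.

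A typical precursor held several of the 8 transcripts at once. The median number of members detected per cell of cluster 2 was 4 in B6_E10.5, 3 in 129_E9.5 and 3 in B6_E9.5, where 6 members could be detected. In B6_E10.5 only 7 of 1498 cells held none and 2 held all 8. Pax3 and Lbx1 were found together in 60.3% of cells in B6_E10.5, 79.8% in 129_E9.5 and 77.5% in B6_E9.5. In B6_E10.5, Myf5 or Myod1 was found in 55.4% of the cells with both Pax3 and Lbx1 and in 62.2% of the 111 cells with neither. The median depth was 8902 UMIs in the cells with both and 4340 UMIs in those with neither.

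Pairs of members were compared by the odds ratio of finding both in 1 cell, where 1 means independence. Deeper cells yield more of every gene, so the ratio was also computed within 5 strata of UMI depth (Mantel-Haenszel), and the stratified values are given unless stated. In B6_E10.5, 14 of 28 pairs lay above 1 and 4 below by their intervals, and within depth strata 7 above and 6 below. In 129_E9.5 it was 7 above and 2 below of 15 pairs, and within strata 6 and 2. In B6_E9.5 it was 6 above and 0 below of 15, and within strata also 6 and 0, with no value for the 5 pairs of Msc. These intervals treat cells of 1 library as independent.

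At E9.5 several pairs of early regulators lay above 1, some of them only with the neuron-marked cells kept. The odds ratio of Pax3 with Lbx1 was 15.5 in 129_E9.5 (8.91 to 27.0) and 4.43 in B6_E9.5 (2.04 to 9.62). Pax3 with Eya1 gave 2.30 (1.39 to 3.82) and 4.07 (1.43 to 11.6), and Pax3 with Six4 gave 2.21 (1.06 to 4.61) and 3.52 (1.15 to 10.8) in the same order. Sim2 with Lbx1 gave 7.96 in 129_E9.5 (3.36 to 18.9). Msc lay apart there, at 0.237 with Pax3 (0.115 to 0.491) and 0.133 with Lbx1 (0.0649 to 0.273). Without neuron-marked cells and without strata, 3 of the 15 pairs of 129_E9.5 lay above 1, against 7 with those cells: Pax3 with Lbx1 (8.44, 3.80 to 18.3), Pax3 with Six4 (3.05, 1.07 to 12.0) and Lbx1 with Sim2 (3.64, 1.49 to 10.7). Pax3 with Eya1, at 1.57 (0.810 to 3.10), then included 1, as did Pax3 with Sim2, Lbx1 with Eya1 and Eya1 with Sim2. The pairs of Msc with Pax3 and with Lbx1 came to 1.13 (0.269 to 10.1) and 0.709 (0.204 to 3.81), both including 1.

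In B6_E10.5 pairs lay on both sides of 1. Pax3 with Lbx1 had an odds ratio of 1.29 (0.963 to 1.72), which includes 1, while Pax3 with Sim2 stood at 1.78 (1.28 to 2.48), Pax3 with Eya1 at 1.61 (1.21 to 2.13) and Lbx1 with Sim2 at 1.45 (1.12 to 1.89). Myod1 was found with Pax3 less often than independence gives, at 0.286 (0.206 to 0.397), and likewise with Sim2, at 0.596 (0.445 to 0.798), and with Lbx1, at 0.693 (0.514 to 0.935). Myod1 was detected in 15.9% of Pax3-positive cells and in 31.6% of Pax3-negative cells. Msc went with Myod1, at 1.94 (1.47 to 2.56), and lay below 1 with Pax3, at 0.506 (0.377 to 0.678), with Lbx1, at 0.753 (0.582 to 0.974), and with Sim2, at 0.620 (0.478 to 0.804). Myf5 had intervals that include 1 with Pax3 (0.964, 0.732 to 1.27) and Lbx1 (0.972, 0.768 to 1.23), and lay above 1 with Myod1, at 1.34 (1.02 to 1.74). Eya1 lay above 1 with Pax3 and also with Msc, at 1.41 (1.08 to 1.84), and Myf5, at 1.26 (1.00 to 1.59). Six4 had intervals that include 1 with every other member at this stage. Without strata the pairs of Lbx1 with Myod1 (0.866, 0.649 to 1.16) and with Msc (0.789, 0.612 to 1.02) included 1. With every cell thinned to 2000 UMIs and no strata, 1 pair lay below 1, Pax3 with Myod1 at 0.329 (0.203 to 0.518), and 4 lay above. Those 4 were Pax3 with Lbx1 (1.30, 1.04 to 1.62), Pax3 with Eya1 (1.35, 1.07 to 1.70), Lbx1 with Sim2 (1.65, 1.19 to 2.30) and Eya1 with Msc (1.71, 1.21 to 2.39). Myod1 with Msc was then at 1.19 (0.637 to 2.09), which includes 1.

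**Figure D3:**
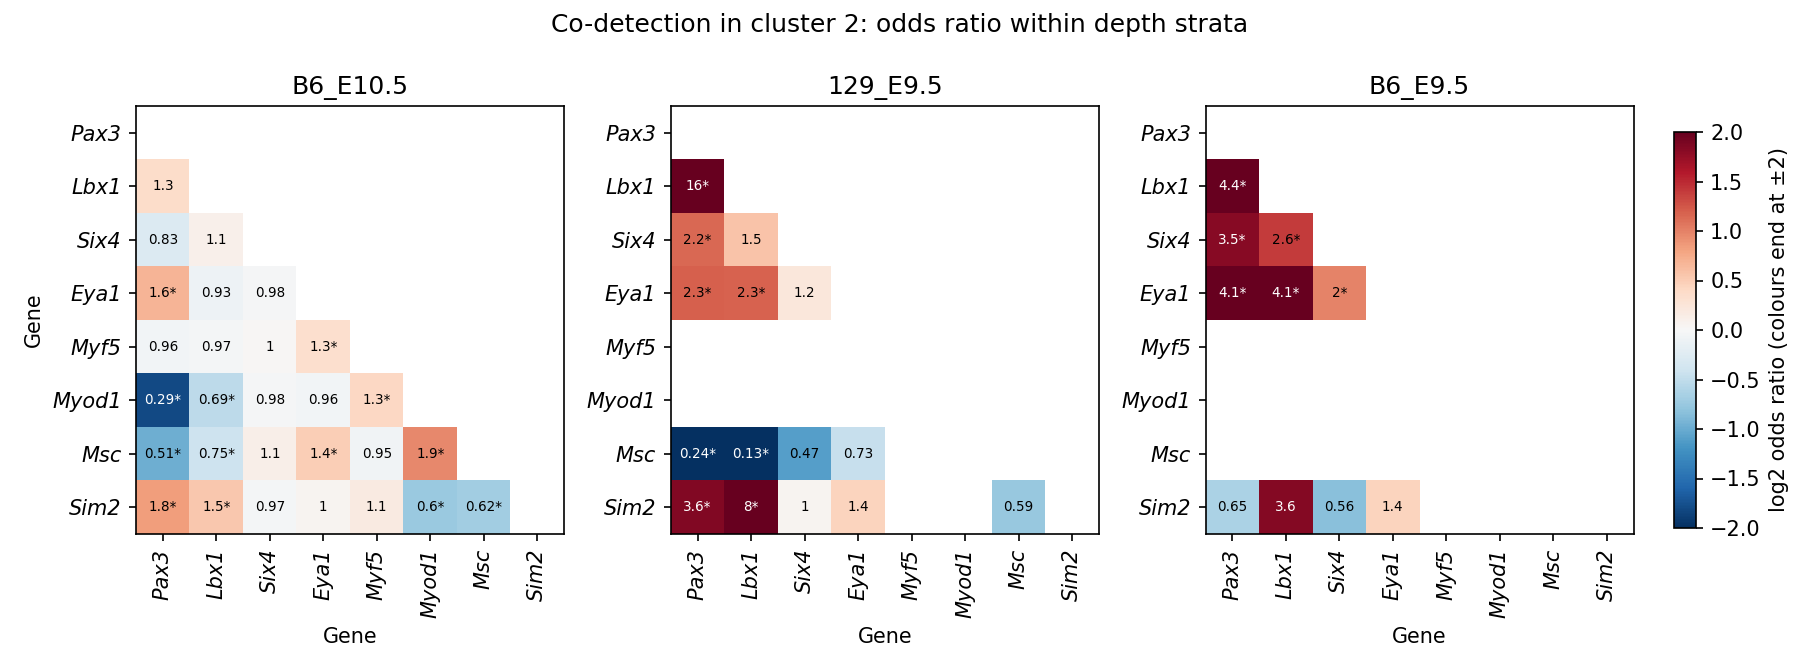
Odds ratio of finding 2 members in 1 cell of cluster 2, within 5 strata of depth, for each library; colour is the log2 odds ratio, the printed value is the ratio, and a star marks an interval that excludes 1. In B6_E10.5 Myod1 and Msc are blue against Pax3 and Sim2 and red against each other; at E9.5 Pax3 and Lbx1 are red together.

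Myf5 and Myod1 together divide the 1498 cells of cluster 2 in B6_E10.5 into 4 states. Neither gene was found in 652 cells (43.5%, 41.0 to 46.1), Myf5 alone in 564 (37.7%, 35.2 to 40.2), both in 154 (10.3%, 8.79 to 11.9) and Myod1 alone in 128 (8.54%, 7.18 to 10.1). Since a cell with no UMI may still hold the transcript, the states are detection states. Pax3 stood at 324 CPM in cells with neither, 315 CPM with Myf5 alone, 233 CPM with both and 183 CPM with Myod1 alone. Sim2 stood at 69.6, 77.1, 56.6 and 35.2 CPM in that order, and Lbx1 at 224, 196, 195 and 143 CPM. Myog, the differentiation factor, went the other way, at 6.75 CPM with neither, 8.92 CPM with Myf5 alone, 93.6 CPM with both and 433 CPM with Myod1 alone. Cdkn1c, a cell cycle inhibitor that acts with Myod1 family factors in muscle cells leaving the cycle, stood at 729, 847, 1752 and 2740 CPM. Pax3, Lbx1 and Sim2 were thus lowest, and Myog and Cdkn1c highest, in the cells with Myod1 alone.

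Setting the 282 Myod1-positive cells against the 1216 Myod1-negative cells gave values for 1 library, with no test. The split by Myod1 was added after the data were seen. Of 7838 genes tested, 86 were at least 2 times as high in Myod1-positive cells (1.1%) and 31 at most 0.5 times (0.396%). None of the 7 other members passed either limit. Pax3 stood at 212 CPM in Myod1-positive cells and 320 CPM in Myod1-negative cells, a ratio of 0.662 (0.603 to 0.726), and Sim2 at 47.4 and 73.3 CPM, a ratio of 0.646 (0.527 to 0.785). Msc stood at 90.7 and 67.2 CPM, a ratio of 1.35 (1.16 to 1.57). Myf5 had a ratio of 0.962 (0.844 to 1.09). The median depth was 8265 UMIs in Myod1-positive cells and 7475.5 in Myod1-negative cells.

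Of 22 genes of muscle structure and differentiation, 8 reached the minimum level: Cdh15, Actc1, Des, Ttn, Myl1, Mylpf, Tnnt1 and Tpm2. The ratio was above 2 for each, but 5 of them were under 10 CPM in Myod1-negative cells and so entered through the Myod1-positive cells, and the count is given as a description only. The 3 with at least 10 CPM in both groups were Tpm2, which encodes a tropomyosin, at 347 CPM in Myod1-positive cells and 163 CPM in Myod1-negative cells, Tnnt1, which encodes a troponin, at 109 and 27.4 CPM, and Cdh15, which encodes M-cadherin, at 68.8 and 27.8 CPM. Myog was at 240 CPM in Myod1-positive cells and 7.83 CPM in Myod1-negative cells, 30.6 times as high (24.0 to 39.5). Mymx, which encodes a small membrane protein needed for myoblast fusion, was at 17.9 and 0.212 CPM, the lower value resting on 2 UMIs. Acta2, which encodes an actin of smooth muscle and early myotubes, was at 40.2 and 1.48 CPM (27.1 times), and Ttn, which encodes the sarcomere spring titin, at 11.5 and 0.635 CPM (18.2 times). Others of the 10 largest ratios were Ank1, Adora1, Actc1, Arpp21, Klhl40 and Vgll2, from 16.5 to 7.52 times. Of 20 other myogenic transcription factors, 16 were tested; Pax7, Myog, Pitx3 and Vgll2 were higher and Meox2 lower, with a median log2 ratio of 0.30. Dll1 and Lfng, a ligand and a modifier of Notch signalling, were 5.85 and 3.23 times as high, on 28 and 49 UMIs in Myod1-positive cells. Myog, Mymx, Acta2, Pax7 and Dll1 were also under 10 CPM in Myod1-negative cells and so entered through the Myod1-positive cells. The counts and largest ratios that hold such genes are likewise descriptions only. Cdkn1c was at 2177 and 788 CPM, 2.76 times as high (2.67 to 2.86), while none of 15 S phase and none of 15 G2 and M phase genes passed a limit. Isl1, one of the neuron markers, was lower (0.495). The smallest ratios named by the same rule were those of Gabra2 (0.2499), Dkk2 (0.279), Osr1 (0.316), Fam81a, Twist2 (0.391), Fzd10, Hist1h2ag, Wnt16, Ezr and Tmem30b (0.408). Osr1 and Twist2 are transcription factors of limb connective tissue, and Dkk2, Fzd10 and Wnt16 belong to WNT signalling.

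Fewer genes passed the limits when the same cells were divided by Myf5. The Myod1-positive cells held 2.51e+06 UMIs and the Myf5-positive cells 6.14e+06. A gene at the minimum level thus rested on fewer UMIs in the Myod1-positive cells, and the counts of the splits are not directly comparable. The 718 Myf5-positive cells, at a median of 8415 UMIs, were set against 780 Myf5-negative cells, at 7071.5. Of 7787 genes tested, 3 were at least 2 times as high in Myf5-positive cells (0.0385%) and 5 at most 0.5 times (0.0642%). The 3 higher genes were Sall1, Ttyh2 and Slco3a1, at ratios from 2.15 to 2.33. Of the 5 lower genes, Myog stood at 28.7 CPM in Myf5-positive cells and 85.9 CPM in Myf5-negative cells, a ratio of 0.334 (0.279 to 0.397). Of the 500 Myog UMIs in Myf5-negative cells, 468 came from the 128 cells with Myod1 alone. Among cells without Myod1, Myog was not lower with Myf5, at 8.92 CPM (6.43 to 12.1) against 6.75 CPM with neither (4.62 to 9.53). Acta2 stood at 3.91 and 15.6 CPM, and the others were Camk1d, Ripk3 and G0s2. None of the 7 other members passed a limit; their ratios ran between 0.820 for Myod1 and 1.14 for Sim2, with Pax3 at 0.992 (0.928 to 1.06).

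**Figure D4:**
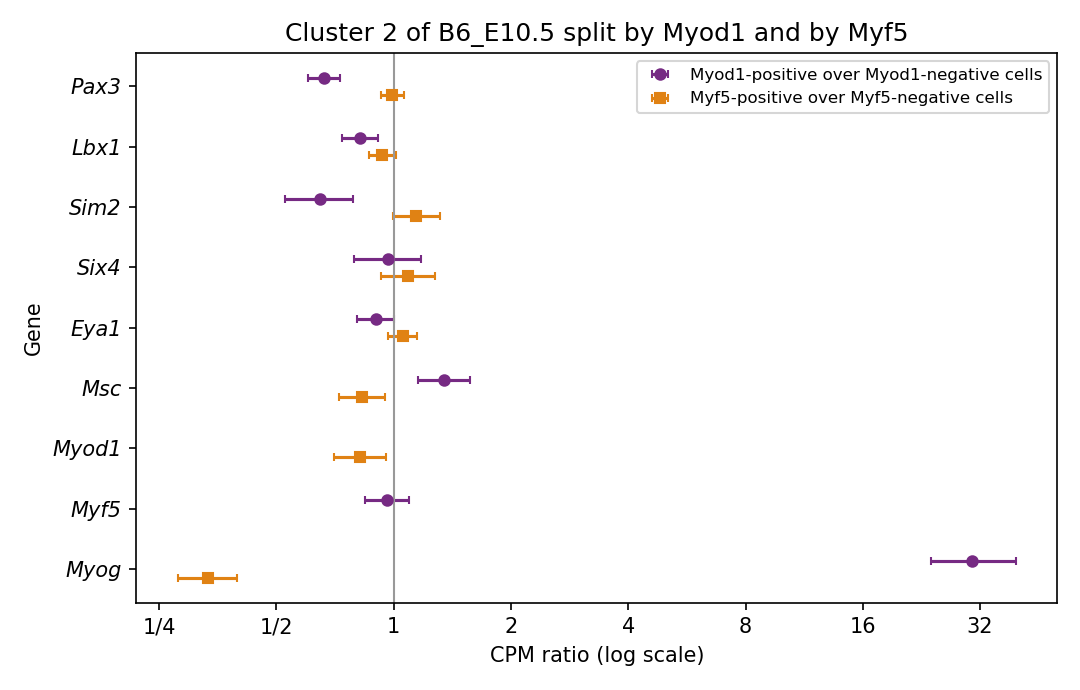
CPM ratio (horizontal, log scale) of Myod1-positive over Myod1-negative cells (circles) and Myf5-positive over Myf5-negative cells (squares) in cluster 2 of B6_E10.5, with 95% intervals for counting error; the gene that defines a split is not shown for it. Myog is 30.6 times as high with Myod1 and at 0.334 with Myf5, and Pax3 and Sim2 are below 1 with Myod1 and near 1 with Myf5. The Myf5-negative cells include those with Myod1 alone, which hold 468 of the 500 Myog UMIs of that group.

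Lbx1, with counts in all 3 libraries, allowed a test with the library as replicate. UMIs were summed over Lbx1-positive and Lbx1-negative cells of cluster 2 in each library (1067 and 431 cells in B6_E10.5, 546 and 101 in 129_E9.5, 240 and 45 in B6_E9.5). Of 9748 genes tested by edgeR's quasi-likelihood test with the library as a block and Benjamini-Hochberg adjustment, 0 were higher and 0 lower at an adjusted p under 0.05 (a share of 0%), with 215 higher and 204 lower at an unadjusted p under 0.05. DESeq2 also called 0 in each direction. Pax3 stood at 305 CPM in Lbx1-positive and 271 CPM in Lbx1-negative cells of B6_E10.5, at 467 against 181 CPM in 129_E9.5, and 472 against 194 CPM in B6_E9.5. It was higher in 3 of 3 libraries, with a log2 fold change of 0.88 ± 0.23 (SE, edgeR adjusted p = 0.961). Sim2 was also higher in 3 of 3 libraries, at 73.1 and 50.5 CPM, 65.9 and 9.55 CPM, and 12.6 and 2.46 CPM in the same order, with a log2 fold change of 1.26 ± 0.40 (SE, edgeR adjusted p = 0.961). Its Lbx1-negative values rested on 6 UMIs in 129_E9.5 and on 1 UMI in B6_E9.5.

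In 129_E9.5, 56 of the 101 Lbx1-negative cells were neuron-marked, while B6_E9.5 had 0 among its 45. Without neuron-marked cells, Pax3 in Lbx1-positive against Lbx1-negative cells came to 468 against 427 CPM for 129_E9.5. For B6_E9.5 it was 476 against 194 CPM, and for B6_E10.5 305 against 274 CPM. Sim2 still differed for 129_E9.5, with 65.7 against 25.6 CPM. A fit without neuron-marked cells pools the 3 libraries, so it does not give the part of those cells in any 1 library. In that fit the log2 fold change of Pax3 was 0.46 and that of Sim2 0.71. There edgeR called 0 of 9774 genes in either direction, with 198 higher and 168 lower at an unadjusted p under 0.05. Msc had a log2 fold change of -1.55 with all cells and of -0.57 without the neuron-marked cells, neither passing. Lbx1-positive cells were also deeper, with medians of 8402 against 6225 UMIs in B6_E10.5, 7750 against 6190 in 129_E9.5 and 12408 against 7455 in B6_E9.5. With every cell thinned to 2000 UMIs and divided anew, the log2 fold change was 0.23 for Pax3, 0.40 for Sim2 and -0.56 for Msc, none passing. Without the B6_E10.5 library, 49 genes were called higher and 99 lower, and Pax3 (log2 fold change 1.28, edgeR adjusted p = 0.00376), Sim2 (2.67, adjusted p = 0.0101) and Msc (-3.10, adjusted p = 0.0106) then passed. That fit has 2 libraries and still holds the neuron-marked cells. Msc had 1 UMI in Lbx1-positive and 0 in Lbx1-negative cells of B6_E9.5. Its value in that fit thus rests on 129_E9.5, with 31 and 42 UMIs. Over all 3 libraries Msc was lower in 2 of 3.

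The genes whose levels ran most like each member were sought by Pearson's r of log2(CPM + 1) over the 15 sums of library and cluster, as a description, since the points share libraries. Foxd2 was nearest to Pax3 (r = 0.990) and Adamts16 to Lbx1 (r = 0.978), and each was among the 3 nearest of both. Vgll2 was nearest to both Myf5 (r = 0.991) and Myod1 (r = 0.998), followed by Atp2a1 and Pitx3; these genes are all listed at 0 in both E9.5 libraries, so 10 of the 15 points are shared listed zeros, and the values say little of likeness. Six4 ran with Plxna3, B4galnt4 and Mapk8ip1 (r from 0.976 to 0.982), Eya1 with Rora, Ppp1r1a and Sp5 (0.934 to 0.962), and Msc with Adora1, Mybpc1 and Gabra2 (0.925 to 0.939). Sim2 ran with Slco5a1 and Ssc5d among its 3 nearest genes (0.949 to 0.964). Among the 6 members with counts in every library r was highest for Pax3 with Lbx1 (0.971), and it was 0.519 for Pax3 with Six4.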

How the data were processed

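The authors deposited 1 matrix of raw UMI counts per gene and cell for all 3 libraries, not normalized, with a table of each cell's stage, strain and cluster number; Cell Ranger 3 and the build mm10 are named in the submitters' processing notes. The filters on cells and genes, and the clustering method, are not stated in the labels. The 8 members, the gene lists and the markers were chosen with earlier results of these data known. UMIs were summed per library and cluster and divided by the total to give CPM. Intervals were exact Poisson for CPM, Clopper-Pearson for shares and conditional binomial for ratios, at 95%, and cover counting error only. Barcodes shared between libraries (55, 28 and 12 cells of cluster 2 in B6_E10.5, 129_E9.5 and B6_E9.5) were kept apart. The Lbx1 comparison used edgeR 4.0.16 in R 4.3.3, with DESeq2 1.42.0 as an alternative, and was tested on simulated data; other values came from Python 3.11.15 with scipy 1.17.1. An edgeR test was also planned for Myf5, but since 1 library lists it, values by size took its place. Named genes were the members, their 3 nearest genes, members of the lists past a limit, and up to 10 genes per direction of each split whose interval excluded 1, without uncharacterised ones. Some genes of the lists are counted but not reported here by name.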

Additional observations from a re-analysis of the deposited data

How the results depend on the processing

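Stage and strain ratios of the 6 members tested kept their direction under TMM factors, cells of at least 2000 UMIs, means of per-cell CPM, no neuron-marked cells and no shared barcodes, apart from an uncalled one (Pax3 for strain, at 1.05 without neuron-marked cells and 1.01 as a mean of per-cell CPM). Of 60 such values 4 lay outside the counting interval. Members called higher in 129_E9.5 numbered 1 without neuron-marked cells, since Msc then missed the minimum level. Pairs above 1 in B6_E10.5 numbered 7 within depth strata. Thinned to 2000 UMIs per cell, pairs above and below 1 numbered 4 and 1 in B6_E10.5 and 1 and 0 in 129_E9.5, with 2 above in B6_E9.5; without neuron-marked cells they numbered 3 and 0 in 129_E9.5.

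Lbx1 calls were 15 higher and 58 lower with no filter on low counts, 1 and 8 after thinning, and between 0 and 49 higher and between 0 and 99 lower with 1 library left out. Myf5 counts were 16 higher and 251 lower after thinning and 609 and 898 with no filter. Myod1 counts were 23 and 678 after thinning and 1780 and 447 with no filter. The cause of these shifts was not tested. The ratio of Myog with Myod1 was 17.5 after thinning (13.1 to 23.6), that of Pax3 0.585 (0.423 to 0.790), and that of Sim2 0.870 (0.466 to 1.499), which includes 1. The ratio of Myog with Myf5 was 0.392 after thinning (0.227 to 0.637). DESeq2, RLE factors, a library term and leaving out libraries could not be run for Myf5 and Myod1, which 1 library lists. No paired analysis was possible because each group has 1 library, as far as stage and strain go; the Lbx1 comparison had the library as a block. Depth limits what a negative cell means: shares of positive cells at 2000 UMIs were lower for 19 of 20 values, outside the interval.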
